A study of Caenorhabditis elegans with 2 samples.

Results

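The genes for the RNA subunits of RNase P (rpr-1) and RNase MRP (mrpr-1) and for the Y RNA (yrn-1) of Caenorhabditis elegans were examined for binding of RPC-1, which is the largest of the subunits of RNA polymerase III. They were chosen by name as the polymerase III genes that the annotation lists once each, and make up 3 of 46890 annotated nuclear genes. Binding was measured by chromatin immunoprecipitation and sequencing (ChIP-seq) with an antibody named for rpc-1. The material was whole young adult worms of strain N2, the wild-type laboratory strain, with both sexes pooled, of an age the labels give as unknown and with no treatment named. Since 2 biological replicates of 1 condition were all there was, conditions could not be compared and nothing could be tested across samples. In whole animals, strong binding in few cells and weak binding in many cannot be told apart.

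RNase P is a ribonucleoprotein that removes the 5′ leader of precursor tRNAs, and RNase MRP is a related enzyme that cuts precursor ribosomal RNA. Y RNAs are small stem-loop RNAs bound by the Ro protein, which in C. elegans is ROP-1. In vertebrates the genes for these RNAs, like those for U6 small nuclear RNA, have promoters upstream of the gene, with a proximal sequence element bound by the small nuclear RNA activating complex and a TATA box. tRNA genes differ in that their promoter, the A box and the B box, lies inside the gene.

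The upstream sequences of the members held the same pair of words at nearly the same distance from the annotated 5′ end. They are shown for mrpr-1 (chrII:7200153-7200252), yrn-1 (chrIV:7499428-7499527) and, as a gene of a like class, the U6 gene with the strongest peak, W05B2.8 (chrIII:10989599-10989698), to make the shared letters visible. All are plus-strand sequence of RefSeq's WBcel235 assembly, from 80 bp before to 19 bp after the first base of the gene. Capitals mark the letters that match the distal word and the proximal letters TATATA.
mrpr-1: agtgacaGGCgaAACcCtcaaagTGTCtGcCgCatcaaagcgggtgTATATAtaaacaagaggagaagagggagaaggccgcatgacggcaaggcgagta
yrn-1: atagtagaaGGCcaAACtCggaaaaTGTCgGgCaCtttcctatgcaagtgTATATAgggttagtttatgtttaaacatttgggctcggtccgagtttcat
W05B2.8: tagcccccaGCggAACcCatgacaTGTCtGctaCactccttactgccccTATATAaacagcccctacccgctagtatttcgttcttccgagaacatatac

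The distal word spans 26 bp, in which GGCNNAACNC and TGTCNGNCNC are separated by 6 free bases, and 14 of its letters were identical in the members. It began 71 bp before the 5′ end at rpr-1 and yrn-1 and 73 bp before it at mrpr-1. The proximal word, GTATATA, was identical in its 7 letters. It followed after 14 bp at rpr-1 and yrn-1 and after 12 bp at mrpr-1, and ended 24, 24 and 28 bp before the gene. The words and their lengths were derived from these 3 sequences after the data had been seen, so the match of the members to them is not a result.

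The other genes did not enter that choice. Searched on both strands from -80 to -41 bp, the distal word with at most 2 mismatches among its 14 fixed letters was present at 8 of 11 U6 genes that had a peak in the list made from both replicates, and at 2 of 11 U6 genes that had none. It was present at 2 of 19973 protein-coding genes (0.010%) and at 0 of 612 nuclear tRNA genes. With 4 mismatches allowed the U6 genes with and without a peak lay closer together, at 11 of 11 and 7 of 11, and the word was found at 59 protein-coding genes (0.295%) and 3 nuclear tRNA genes (0.490%). The U6 genes F54D8.7, F54C8.8, F54C8.9 and F54C8.10 matched 13 of the 14 letters, and W05B2.8 matched 12. The whole proximal word was not shared with the U6 genes: between -40 and -15 bp on either strand, GTATATA was present at 0 of 22 U6 genes and 0.661% of protein-coding genes. Its last 6 letters, TATATA, a shorter word looked at after the data had been seen, were present there at 16 of 22 U6 genes, of which 11 were among the 11 with a peak and 5 among the 11 without, against 1.83% of protein-coding genes and 0.817% of nuclear tRNA genes. None of the 5 genes for signal recognition particle (SRP) RNA, the RNA of the complex that targets secreted proteins to the membrane, held TATATA there, and their best match to the distal word had 6 mismatches (srpr-1.1, srpr-1.2 and srpr-3). U6 genes are near-identical copies, some side by side, so reads may be shared among them and the split into genes with and without a peak is uncertain. Their upstream sequences may be copies too: F54C8.8, F54C8.9 and F54C8.10 each matched 13 letters from -71 bp. The counts of U6 genes with a word may therefore not be counts of independent genes. A match is a description of letters and was not tested as a binding site.

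**Figure D1:**
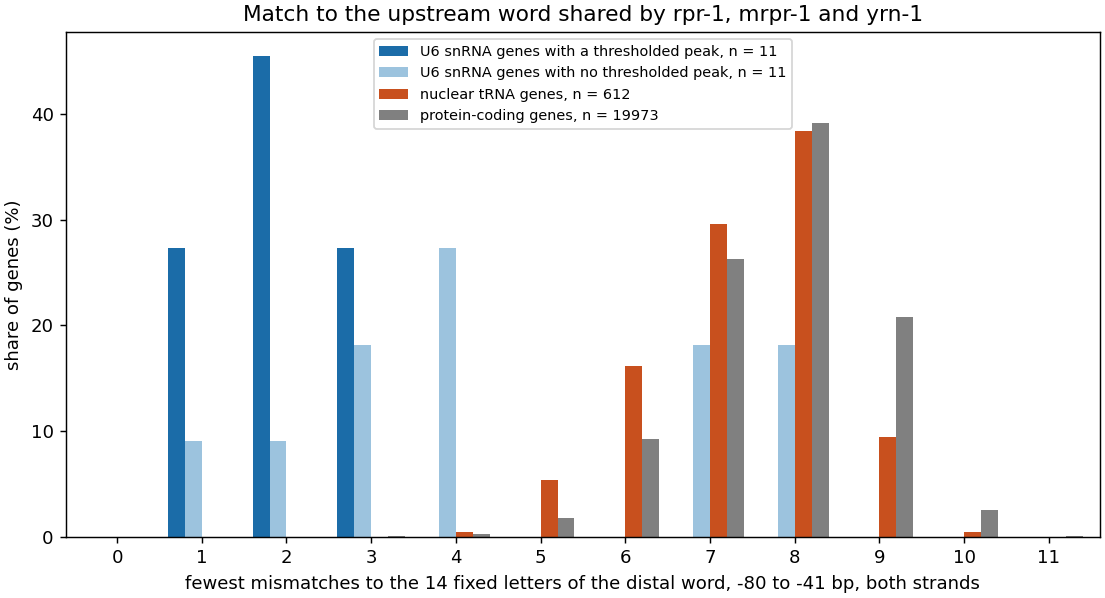
Share of genes (y axis, %) by the fewest mismatches to the 14 fixed letters of the distal word between -80 and -41 bp on either strand (x axis), for U6 genes with and without a thresholded peak, nuclear tRNA genes and protein-coding genes. The 11 U6 genes with a peak lie at 3 mismatches or fewer, and the median protein-coding gene lies at 8.

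The ends of each gene were searched for runs of letters that could pair. The sequence of mrpr-1 (chrII:7200233-7200418, plus strand, 186 bp) and of yrn-1 (chrIV:7499508-7499612, plus strand, 105 bp) is given with the longest run of Watson-Crick pairs between the first and last 15 bases in capitals.
mrpr-1: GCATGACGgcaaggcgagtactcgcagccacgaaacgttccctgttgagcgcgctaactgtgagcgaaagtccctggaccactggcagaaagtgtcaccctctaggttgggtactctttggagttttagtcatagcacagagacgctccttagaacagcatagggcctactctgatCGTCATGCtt
yrn-1: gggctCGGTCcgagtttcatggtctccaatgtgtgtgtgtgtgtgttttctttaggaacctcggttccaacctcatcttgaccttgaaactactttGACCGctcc
The run was 8 bp at mrpr-1, 5 bp at yrn-1 and 10 bp at rpr-1. How often runs of these lengths occur at the ends of other genes was not counted. Whether the ends pair was not tested. Polymerase III ends transcription at a run of T on the gene's strand. The longest such run at the 3′ end was 5 T at rpr-1 and 4 T at mrpr-1, both beginning 1 base before the last annotated base, and 4 T at yrn-1, beginning 1 base after it. Runs of 4 T also lay inside 2 of the genes, from 123 to 126 bp after the first base of mrpr-1 and from 45 to 48 bp after that of yrn-1, as long as the run at the 3′ end of each.

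The genes lie in different surroundings. rpr-1 (WBGene00045238, chrI:13463955-13464207, plus strand, 253 bp) sits in an intron of ints-8, the gene for an Integrator complex subunit, on the opposite strand and 555 bp or more from its exons. mrpr-1 (WBGene00045095) lies between genes, 131 bp before the 5′ end of pcrg-1 on the same strand. yrn-1 (WBGene00006967) sits in an intron of F55G1.15 on the opposite strand, 55 bp from the nearest exon, and lies within the annotated noncoding RNA gene F55G1.20, also on the opposite strand. ChIP-seq has no strand, so binding at yrn-1 and at F55G1.20 cannot be told apart. In the list made from both replicates, the peak at yrn-1 also overlapped 2 annotated exons of F55G1.15. The peak at rpr-1 overlapped 0 exons of ints-8. Of the 32-base words of each gene with 200 bp on each side, 100% occur once in the genome.

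Each gene had a peak in all 4 peak lists on build ce11. These are the list thresholded for reproducibility between replicates (1320 peaks), the relaxed list called on both replicates together (20662 regions), and each replicate's own relaxed list (30000 regions each). Of the other nuclear genes, 3.87% overlapped a thresholded peak, and 3.83% of those with a length of 100 to 260 bp did. A region of the pooled relaxed list overlapped 27.7% of other nuclear genes, one of replicate 1's list 34.9% and one of replicate 2's list 34.4%, so presence in the relaxed lists alone says little. The thresholded peaks were drawn from the pooled list, so the signals and ranks of the members are identical in both and count as 1 measurement. The signal value is the authors' own, on a scale that differs between lists. Read totals were not used here and the depth is unknown.

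The order of the members by signal was mrpr-1, rpr-1, yrn-1 in every list. mrpr-1 had a signal of 499 in the thresholded list (rank 161 of 1320), 168 in replicate 1 (rank 162 of 30000) and 331 in replicate 2 (rank 173). rpr-1 had 455 in the thresholded list (rank 220), 163 in replicate 1 (rank 174) and 288 in replicate 2 (rank 249). yrn-1 had 257 in the thresholded list (rank 484), 76.4 in replicate 1 (rank 524) and 177 in replicate 2 (rank 483). The signal at mrpr-1 was 1.03 times that at rpr-1 in replicate 1 and 1.15 times in replicate 2. Within a list mrpr-1 ranked ahead of rpr-1 in both replicates, at 162 against 174 in replicate 1 and 173 against 249 in replicate 2. The SD of the replicate ranks was 7.78 for mrpr-1 and 53.0 for rpr-1 (n = 2 each). In replicate 1 the margin was smaller than the SD of rpr-1, which itself rests on the rank of 249. The order is therefore not set apart from the spread between replicates. With 2 replicates whether the RNase MRP and RNase P genes differ could not be tested. The Y RNA gene stood apart from both, at 0.468 and 0.613 times the signal of rpr-1 in replicates 1 and 2 and 0.456 and 0.534 times that of mrpr-1, and its replicate ranks (SD 29.0, n = 2) lay clear of those of the others.

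**Figure D2:**
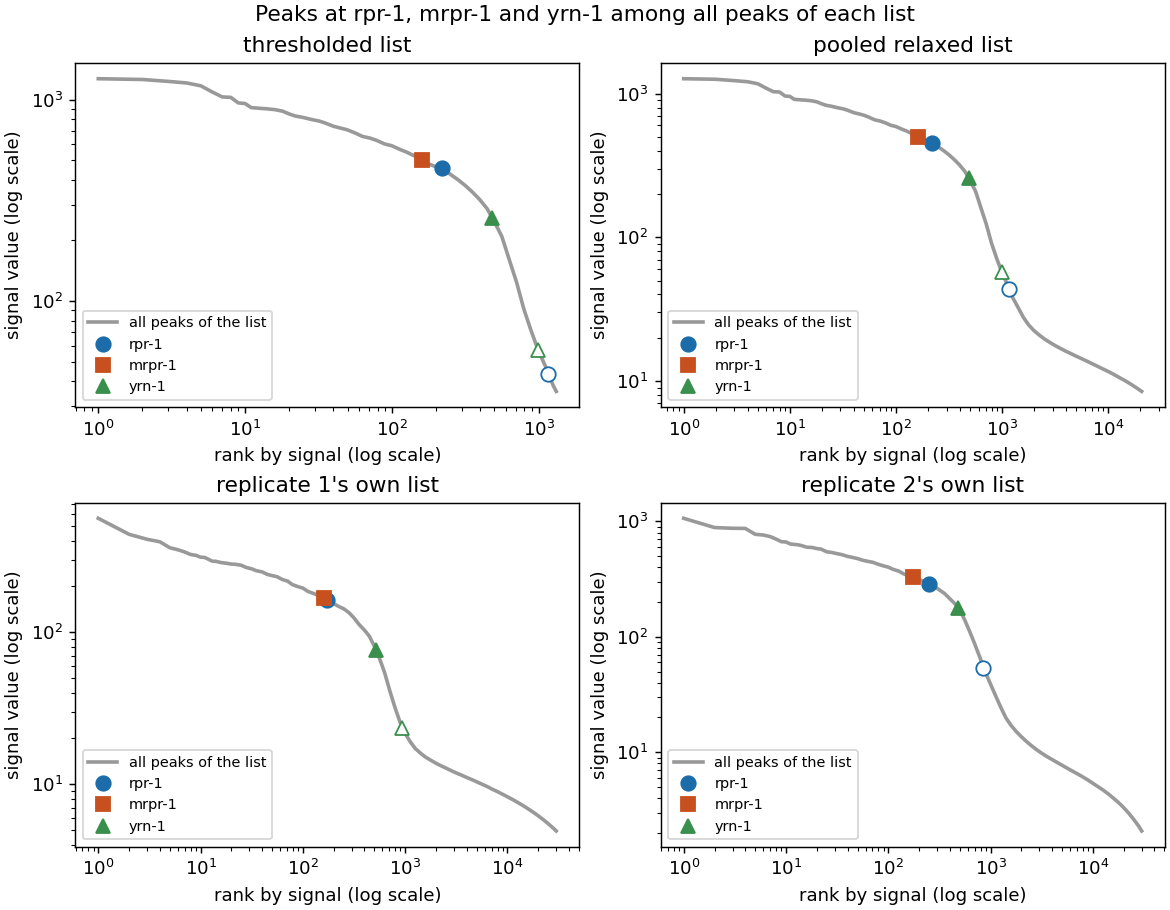
Signal value (y axis, log scale) against rank (x axis, log scale) in the 4 lists, with all peaks as a grey line, the strongest peak of each gene as a filled symbol and weaker overlapping peaks as open symbols. mrpr-1 and rpr-1 lie close together at ranks 161 to 249, and yrn-1 lies lower at ranks 483 to 524.

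Set against tRNA genes, the bulk of the polymerase III genes, the members fell on both sides of the middle. The ratio to the median signal of tRNA gene peaks in the same list was 1.53 in replicate 1 and 1.41 in replicate 2 for mrpr-1. It was 1.50 and 1.23 for rpr-1, and 0.699 and 0.752 for yrn-1. Of 504 thresholded peaks at nuclear tRNA genes, 109 (21.6%) were stronger than the peak at mrpr-1, 158 (31.3%) stronger than that at rpr-1 and 350 (69.4%) stronger than that at yrn-1. In the replicates these shares were 20.1% and 22.6% for mrpr-1, 21.8% and 34.3% for rpr-1, and 70.2% and 67.2% for yrn-1. rpr-1 moved most between the replicates. How often the sequence occurs in the genome was counted for the members only. Whether reads shared among like tRNA genes affect their signals, and so these ratios and shares, is unknown.

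Among the 18 genes of the members, U6 and SRP RNA that had a thresholded peak, mrpr-1 took place 2, rpr-1 place 4 and yrn-1 place 11. Place 1 went to the U6 gene W05B2.8 (signal 888) and place 3 to the U6 gene Y9C9A.111 (474). The 4 SRP RNA genes with a peak ranged from 267 at srpr-1.1 to 340 at srpr-2.2, below rpr-1 and above yrn-1. The summit at srpr-1.1 lay 434 bp from the 5′ end of that 298 bp gene, and so outside it. The 11 U6 genes with a peak ranged from 38.4 at K09B11.16 to that of W05B2.8, with a median of 186, so the members lay within the U6 range. Since reads may be shared among U6 copies, their signals and these places are uncertain.

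**Figure D3:**
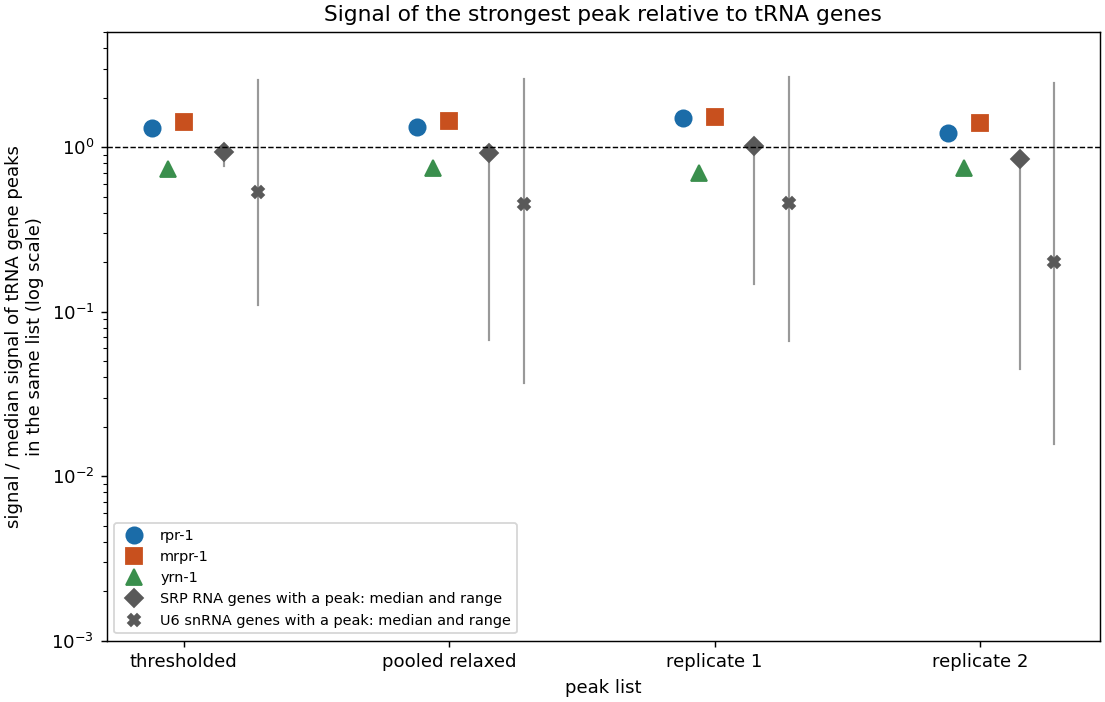
Signal of the strongest peak divided by the median signal of tRNA gene peaks in the same list (y axis, log scale; dashed line at 1) in each list (x axis), for the members as single points and for SRP RNA and U6 genes with a peak as median (symbol) and range (line). mrpr-1 and rpr-1 lie between 1.23 and 1.53 and yrn-1 between 0.699 and 0.752 in every list.

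The summits lay inside the transcribed genes and not over the upstream words. In the thresholded list the summit of the strongest peak was 52 bp from the first base of rpr-1, 88 bp from that of mrpr-1 and 64 bp from that of yrn-1, downstream in each case. At rpr-1 it was 53 bp in replicate 1 and 35 bp in replicate 2 (mean 44 ± 12.7 bp SD, n = 2). At mrpr-1 it was 97 and 88 bp (mean 92.5 ± 6.36 bp SD, n = 2). At yrn-1 it was 31 and 64 bp (mean 47.5 ± 23.3 bp SD, n = 2). The values of rpr-1 and yrn-1 overlapped, and mrpr-1 had the farthest summit in both replicates.

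As a share of the gene, the thresholded summit lay 20.6% of the way along rpr-1, the longest of the genes, 47.6% along mrpr-1 and 61.5% along yrn-1, the shortest. This order by length did not hold in replicate 1, where the shares were 21.0%, 52.4% and 29.8%, and in replicate 2 they were 13.9%, 47.6% and 61.5%. Measured from the proximal word, the thresholded summit lay 77 bp downstream at rpr-1, 117 bp at mrpr-1 and 89 bp at yrn-1. In replicate 1 the distances were 78, 126 and 56 bp, so the place of yrn-1 relative to rpr-1 turned with the replicate. At the 11 U6 genes with a thresholded peak, whose median length is 102 bp, the summit also lay inside the gene in 11 cases, from 13 to 87 bp and with a median of 67 bp from the 5′ end, so rpr-1 and yrn-1 lay within that range and mrpr-1 lay 1 bp past its end. Of the 4 SRP RNA genes with a peak, whose median length is 299 bp, 3 had the summit inside the gene, at 101, 147 and 148 bp. At the 406 isolated tRNA genes with a peak, isolated meaning 500 bp or more from the next tRNA gene, the median was 20.5 bp in genes with a median length of 73 bp, and 340 summits lay in the gene. With 3 members no test of these positions was made.

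**Figure D4:**
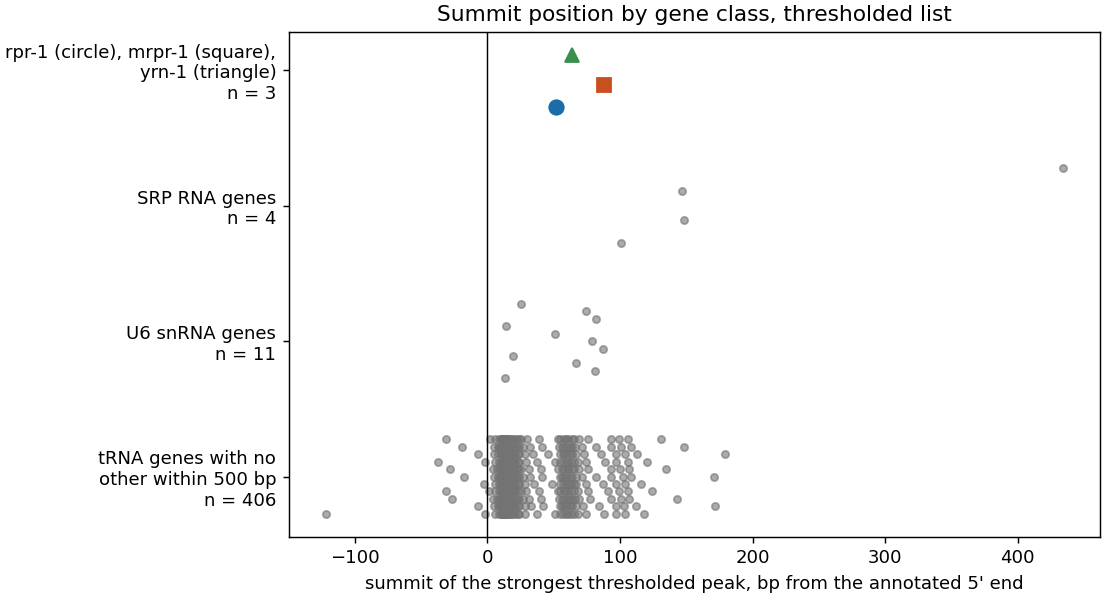
Summit of the strongest thresholded peak in bp from the annotated 5′ end along the gene's strand (x axis; vertical line at the 5′ end) for each gene with a peak, by class (y axis; points are spread vertically only to be seen). The members lie at 52, 64 and 88 bp, none upstream of the 5′ end.

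The peak intervals covered the whole of each gene in the thresholded list and in replicate 2. In replicate 1 the strongest peak covered 100% of mrpr-1, 85.7% of yrn-1 and 60.9% of rpr-1. In the thresholded list the peak at rpr-1 ran from 162 bp before the 5′ end to 366 bp after it (529 bp wide), that at mrpr-1 from 157 bp before to 377 bp after (535 bp) and that at yrn-1 from 118 bp before to 328 bp after (447 bp). Each was wider than the median of 367.5 bp at the isolated tRNA genes and within their range of 136 to 790 bp. The interval at rpr-1 was listed again for a weaker summit. At yrn-1 a weaker peak with an interval of 458 bp covered nearly the same stretch. The intervals of the strongest peaks were narrower in replicate 1, at 238, 263 and 123 bp for rpr-1, mrpr-1 and yrn-1. In replicate 2 they were 537, 538 and 313 bp wide, in the same order. The isolated tRNA genes differed in the same direction, with medians of 226.5 bp in replicate 1 and 377 bp in replicate 2. The strongest peak at yrn-1 was thus narrower than the tRNA median in each replicate, against the direction in the thresholded list. Those at rpr-1 and mrpr-1 were wider in both. At yrn-1 a second region overlapped that peak, from 49 to 412 bp after the first base in replicate 1 and from 119 to 331 bp in replicate 2. The widths of 123 and 313 bp are therefore those of 1 of 2 overlapping regions. Whether this split accounts for the narrower widths was not tested. Both words lay wholly under the peak at each gene in the thresholded list and in replicate 2. In replicate 1 they did so at rpr-1, while the peak at yrn-1 covered the proximal word only and the peak at mrpr-1, which began 27 bp before the gene, covered neither.

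**Figure D5:**
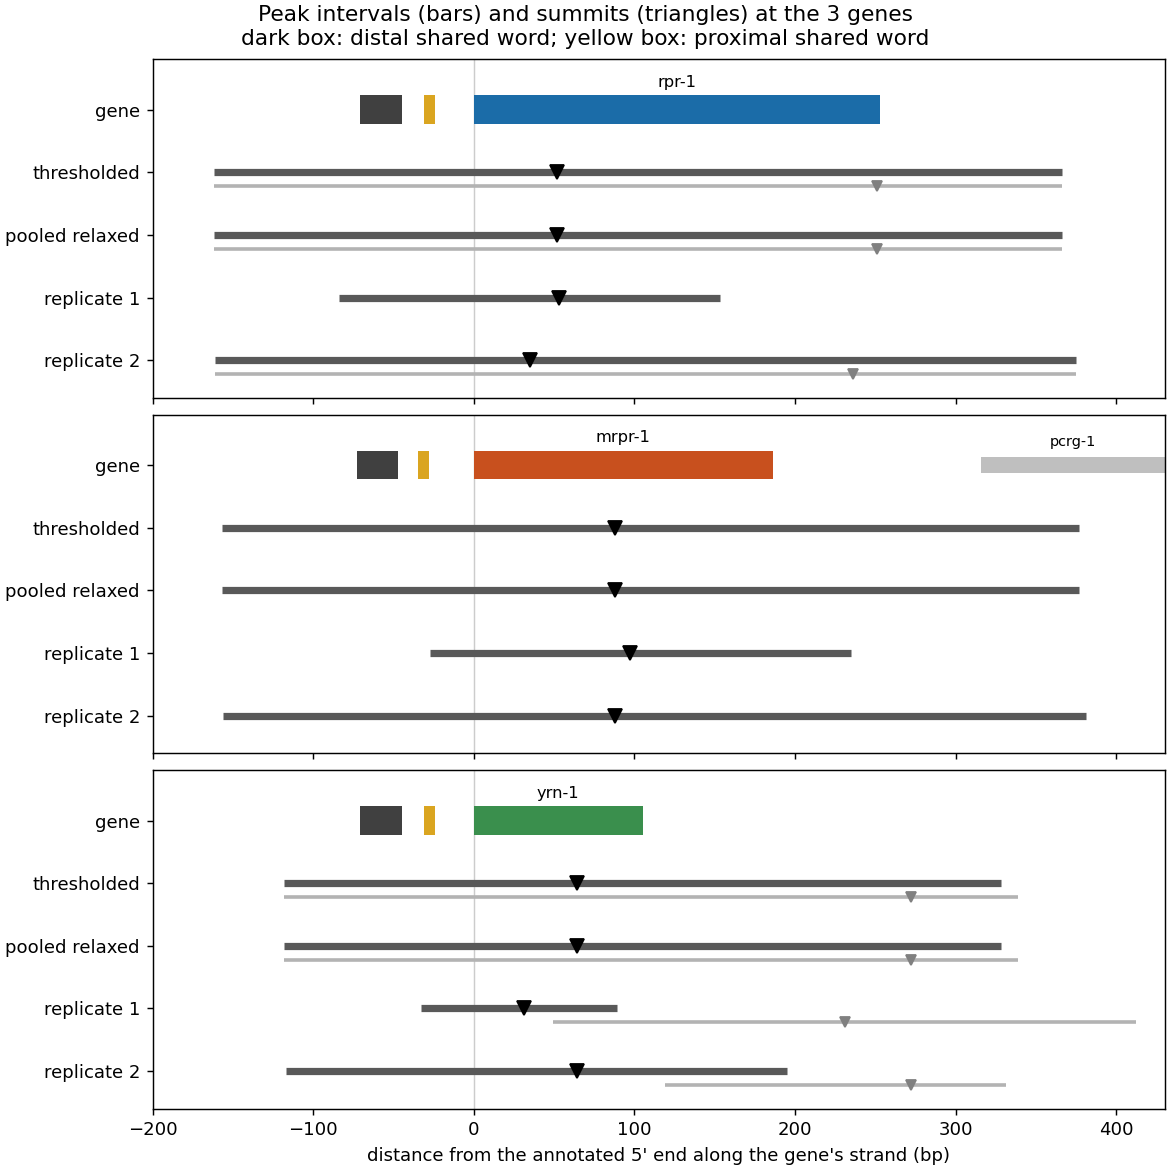
Peak intervals (bars) and summits (triangles) at rpr-1, mrpr-1 and yrn-1 in the 4 lists, by distance from the annotated 5′ end (x axis, bp), with the gene and its shared upstream words in the top row of each panel; thin grey bars and small triangles are weaker peaks. Every main summit lies inside its gene, from 31 to 97 bp.

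rpr-1 and yrn-1 had a second, weaker summit toward or past their 3′ end, and mrpr-1 had none in any list. At rpr-1 it lay 251 bp from the first base, 1 base before the last base of the gene, with a signal of 43.3 in the thresholded list (rank 1165) and of 54.0 at 236 bp in replicate 2 (rank 848), and replicate 1 had none. At yrn-1 it lay 272 bp from the first base, past the end of the gene, with a signal of 57.4 in the thresholded list (rank 996). It stood at 231 bp in replicate 1 (signal 23.5, rank 939) and in replicate 2 at 272 bp, in a region of its own that did not overlap the gene (signal 37.7, rank 1009). These summits were 199 and 208 bp from the main summit in the thresholded list. No summits of the nuclear genome were closer than 199 bp to each other in any of the lists. In the thresholded list 86 of 110 gaps of up to 300 bp (78.2%) measured 190 to 210 bp. This share was lower in the relaxed lists, at 38.4% in the pooled list, 35% in replicate 1 and 33.1% in replicate 2. In the thresholded list the distance at rpr-1 thus equals the smallest spacing, and that at yrn-1 lies close to it. Whether that spacing sets these positions was not tested.

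Beyond those summits the surroundings were empty in the reproducible list. The nearest other thresholded peak was 132834 bp from the 5′ end of rpr-1, 16125 bp from that of mrpr-1 and 74569 bp from that of yrn-1. In the pooled relaxed list the nearest other regions lay 6656, 7173 and 4040 bp away, with signals of 23.3, 9.25 and 8.62. The replicates' own lists held closer ones. Replicate 2 had a region 1618 bp from rpr-1 (signal 2.55, rank 25633) and one 2462 bp from mrpr-1 (2.20, rank 28833). Replicate 1 had one 597 bp from yrn-1 (signal 11.4, rank 3570). The peak at mrpr-1 reached the gene pcrg-1, whose 5′ end lies 316 bp from the first base of mrpr-1. It ran 62 bp into pcrg-1 in the thresholded list and 66 bp in replicate 2, and in replicate 1 it ended before pcrg-1, 235 bp from the first base of mrpr-1. It was the only peak within 250 bp of the pcrg-1 5′ end in each list, with a summit 219 to 228 bp upstream of it.

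Protein genes of these RNAs' pathways were also searched for peaks near their 5′ ends. A list of 13 genes held rop-1 for the Ro protein, popl-1, popl-4, popl-5 and popl-7 for subunits of RNase P and RNase MRP, 7 snpc genes for the small nuclear RNA activating complex and tbp-1 for the TATA-binding protein. Of these, 1 had a thresholded peak within 250 bp of its 5′ end, where 1.82% of protein-coding genes had one. That gene was snpc-3.4 (WBGene00011367, chrIII:4020037-4021883), with a signal of 41.1 (rank 1203) and a summit 24 bp upstream of the 5′ end. Its peak had a signal of 24.4 in replicate 1 (rank 921) and 17.1 in replicate 2 (rank 1583), below the weakest of the members in each list, and no other annotated gene lay within 500 bp of it. In the relaxed lists 2 of the 13 genes had a region there in the pooled list, 4 in replicate 1 and 8 in replicate 2, where 22.7%, 28.3% and 29.1% of protein-coding genes had one. The other gene in the pooled list was snpc-1.1, with a signal of 31.7 (rank 1437) and a summit 250 bp downstream of its 5′ end. snpc-1.1 also had a region in replicate 2 (signal 21.8, rank 1341) and none in replicate 1. rop-1 had a region in replicate 2's list only (signal 9.43, rank 3380). The same held for popl-1 (8.79, rank 3859), snpc-1.3 (5.36, rank 10065), popl-4 (3.59, rank 18238) and snpc-1.2 (3.53, rank 18574). Regions at popl-7 (5.12, rank 28166) and snpc-4 (5.17, rank 27708) were in replicate 1's list only. tbp-1 had one in replicate 1 (5.08, rank 28493) and in replicate 2 (3.61, rank 18071).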

How the data were processed

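The members, gene lists and measures were chosen with earlier results of these data known. Per the submitters' list of files, the authors called relaxed peaks on each replicate's alignment and on both together, with a control library, and used the irreproducible discovery rate to make the thresholded list. Which aligner and caller they ran is not given in the sources used here. The deposited lists give a signal value per peak, a −log10 q-value, which was not used, and a summit. The lists on ce10 were not used. Ranks are by signal within a list. Genes are from Ensembl release 115 on WBcel235, which equals ce11, with sequence from RefSeq. A gene had a peak when 1 bp or more overlapped, and the strongest overlapping peak was taken. U6 genes were snRNA genes of 90 to 120 bp with ACAGAGA. Named genes were the members, their hosts and neighbours, the extremes of the U6 and SRP classes, and pathway genes with a peak; other U6 and SRP genes were named after their values were seen. Distances count the first base as 0. The code was tested on simulated data. Python 3.11.15, NumPy 2.4.6, SciPy 1.17.1 and Matplotlib 3.10.9 were used.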

Additional observations from a re-analysis of the deposited data

How the results depend on the processing

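No paired analysis was possible because there was 1 group, and no result came from a test. Each of the 3 genes kept a peak with a summit within 100 bp of the gene, with 50% of the gene covered, among the 660 strongest thresholded peaks, and in the 1320 strongest peaks of either replicate alone. The share of other nuclear genes with a peak, 3.87%, became 2.48% when 50% of the gene had to be covered, and ranged from 3.8 to 3.85% with 1 replicate left out. Leaving out 1 replicate gave ranks of 174 to 249 for rpr-1, 162 to 173 for mrpr-1 and 483 to 524 for yrn-1, and summits 35 to 53, 88 to 97 and 31 to 64 bp from the 5′ end. The midpoint of the peak in place of its summit lay 102 bp from the 5′ end at rpr-1, 110 bp at mrpr-1 and 105 bp at yrn-1, which is the base after the last one of yrn-1, since the intervals reach farther downstream than upstream. Ranks among distinct intervals or without mitochondrial peaks, and summits in the pooled list or nearest to the gene, moved by less than the spread between replicates. Of 40 alternative values 9 moved by more than that spread, or by over 1.5 times for a count, and no summit changed side of the 5′ end. This tally does not measure robustness. Ranks and summits from the pooled list are the same by construction. Those with 1 replicate left out are the replicate values that set the spread. Limits are that the depth is unknown, that 2 replicates give a spread but no test, and that summits from a peak caller carry an error that the lists do not state.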

Other observations

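The members were also searched for the B box of tRNA genes, whose 11 letters are GGTTC, any base, A, any pair of bases and CC, on both strands of the whole gene. None held it exactly. yrn-1 held it with 1 mismatch on the gene's strand, from 62 to 72 bp after the first base, in the stretch ggttccaacct of the sequence printed above. The summit lay in that stretch in the thresholded list and in replicate 2 (64 bp) but not in replicate 1 (31 bp), so its position there rests on replicate 2. rpr-1 held it with 1 mismatch on the opposite strand, from 161 to 171 bp, away from its summit, and the best match in mrpr-1 had 3 mismatches. A match with 1 mismatch was present in the first 105 bp of 3.74% of protein-coding genes and in the first 253 bp of 9.05%, windows of the lengths of yrn-1 and rpr-1. The exact box was present in 82.2% of nuclear tRNA genes. Whether the stretch in yrn-1 binds any factor was not tested.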
